A study of Mus musculus with 8 samples.

Results

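The genes described here encode the proteins of the mitochondrial ribosome, and they were taken as every row of the deposited table whose symbol is Mrpl or Mrps followed by a digit. The rule found 76 genes among 11841 symbols, 47 named for the large and 29 for the small subunit, and none of them stood on more than 1 row. RNA came from CD4+ T cells carrying the memory and activation marker CD44, taken from lymph nodes that drain the skin of BALB/cAJcl mice, and per the labels all cells were exposed to PMA and ionomycin for 2 h. Donor mice were wild type (WT) or lacked T-bet (T-bet-/-, here T-bet-null), STAT6 (STAT6-/-, here STAT6-null) or both (T-bet-/- STAT6-/-, here double-null). Each genotype had 2 libraries, 8 in all, and the stimulation was the same in all 4 groups. The labels give no age and no number of animals for a library, and they do not say which part of either gene was removed. Whether the 2 libraries of 1 genotype stem from different animals is not said either, so the p-values measure the spread between these libraries, which may be technical. T-bet is a transcription factor of type 1 helper cells, and STAT6 acts downstream of the IL-4 receptor.

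Mitochondria make a small set of respiratory chain proteins on ribosomes of their own. The RNA of these ribosomes is made from mitochondrial DNA, whereas all of their proteins are encoded in the nucleus, made in the cytosol and imported. Some of the proteins descend from those of the bacterial ribosome, and others exist only in mitochondria. T cells that are activated enlarge their mitochondria and raise the synthesis of respiratory chain proteins, for which this ribosome is needed.

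The table gives FPKM, a count of fragments scaled for transcript length and library size. Steps between low values placed the relative depth of the libraries between 0.856 and 1.04. Of 503 genes used, 129 to 159 lay on such steps in the libraries other than WT replicate 1, so these ratios are approximate. Differences are given on the log2(FPKM + 1) scale, where 1 is a doubling for genes well above 1 FPKM, with the standard error of the fit. Calls were made with limma at a threshold of 0.05 on p-values adjusted by Benjamini-Hochberg over all genes tested. Tbx21, the gene of T-bet, stood at 30.8 and 31.6 FPKM in WT, 1.44 and 1.54 in T-bet-null, 102 and 92.1 in STAT6-null and 2.49 and 2.09 in double-null libraries, and Stat6 at 89.9 and 90.9, 88.8 and 89.8, 31.6 and 29.0 and 29.6 and 26.9, so each gene was low where its label says it was deleted, and Stat6 RNA was still present there. The 7 helper T cell markers listed, Cd4 and Cd3e among them, were all present and summed to 1724 to 1749 FPKM in WT and 1308 to 1557 in the mutants; with T-bet loss 6 were called lower, with STAT6 loss 4 and with both losses 5, and 1, Cd44, was called higher in each mutant. Of 9 erythroid markers 2 were in the table, with a sum of 442 FPKM in WT replicate 1, 224 in WT replicate 2 and 2.63 to 7.48 in the 6 mutant libraries. Of 10 myeloid and dendritic markers 4 were in the table (121 to 122 FPKM summed in WT, 54.1 to 78.4 in the mutants). Most of that sum was Ctss, at 105 and 109.9 FPKM in WT and called lower in each mutant, whereas Cd68, at 2.96 and 3.46 FPKM in WT, was called higher in STAT6-null (0.67) and double-null cells (0.45). All 15 cell cycle genes were in the table (558 to 593 in WT, 345 to 458 in the mutants). The 7 stress and early response genes listed summed to 2114 to 2162 FPKM in WT and to 1273 to 1550 in the mutants. Egr1 made up most of that sum, at 1144.5 and 1173 FPKM in WT, and was called lower in each mutant, while the heat shock genes Hspa1a (1.01, 1.19 and 1.18) and Hspa1b (0.97, 1.11 and 1.11) were called higher in all 3, the single mutants being given first with T-bet-null leading. Of 5 stroma and endothelium markers 2 were in the table (24.2 to 26.0 FPKM summed in WT, 8.15 to 11.3 in the mutants). B cell markers summed to 4.80 to 7.57 FPKM in WT and 2.15 to 8.09 in the mutants. The CD8 T cell marker measured gave 4.90 to 5.60 and 3.02 to 4.46, and NK cell markers summed to 0.389 to 0.621 and 0.676 to 2.65. The part of any of these cell types, of helper T cell content, red blood cells, myeloid cells, cycling cells or stress in the differences from WT was not tested. No batch is given, so how the WT libraries were prepared and the genotype cannot be told apart in any comparison with WT.

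The RNAs of most mitochondrial ribosomal proteins were more abundant in all 3 mutants than in WT cells. Summed over the large subunit, the level was 923.8 and 854 FPKM in WT, 1054 and 1012 in T-bet-null, 1088 and 1113 in STAT6-null and 1189.8 and 1281 in double-null libraries. Summed over the small subunit it was 485 and 445 FPKM, 594 and 583, 609 and 609.99, and 653 and 702 in the same order. For either subunit the WT libraries were thus the 2 lowest and the double-null libraries the 2 highest of the 8. These are bulk samples, so a change in the share of cells that make an RNA and a change in the amount per cell cannot be told apart.

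**Figure D1:**
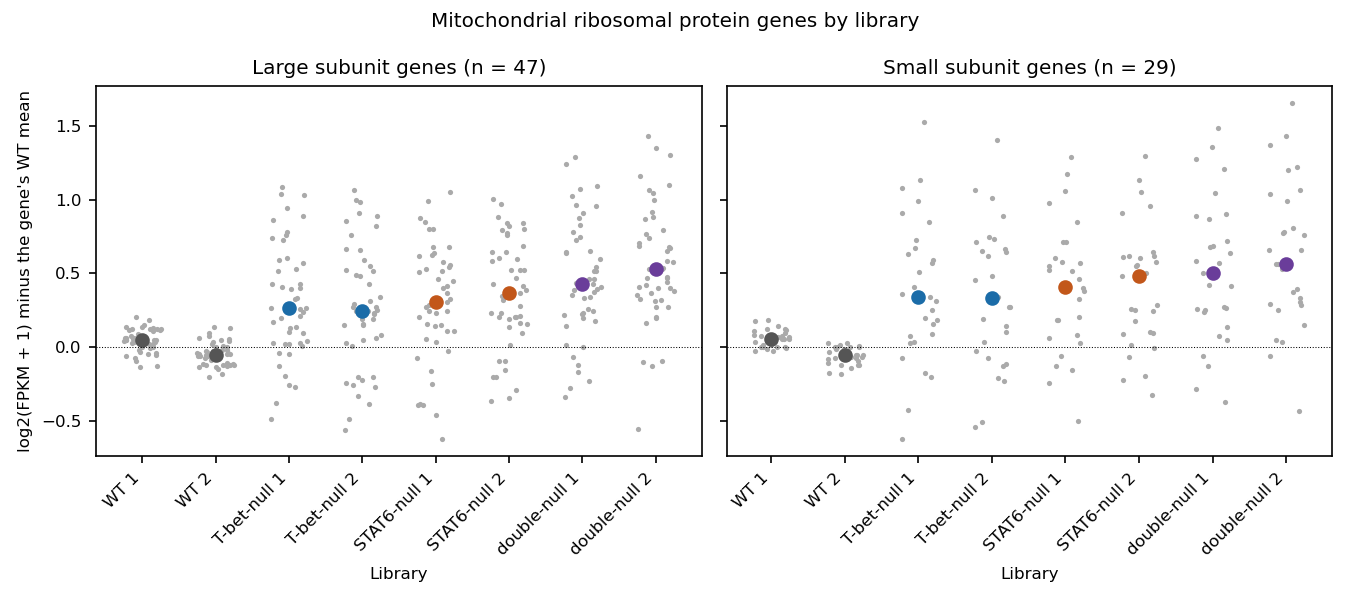
Each grey point is 1 gene in 1 library, as log2(FPKM + 1) minus the mean of the same gene in the 2 WT libraries, and each coloured point is the median over the 47 large subunit genes (left) or the 29 small subunit genes (right). The medians of the 6 mutant libraries lie above those of both WT libraries in either panel, and those of the 2 double-null libraries are the highest, while some genes fall below their WT mean.

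Gene by gene, 44 of the 76 were called higher and 5 lower in T-bet-null than in WT cells, where 34.2% of the 10281 genes in the fit passed as higher, 36.3% as lower and 70.6% either way. In STAT6-null cells 51 were called higher and 7 lower, against 34.9% and 36.1% of all genes, or 71% either way. In double-null cells 60 were called higher and 2 lower, against 36.3% and 36.7%, or 73% either way. The share of members called higher was therefore 57.9%, 67.1% and 78.9%, in each case above that of all genes, and the share called lower was far below it. All 76 passed the filter on low values, which asked for at least 1 FPKM in 2 libraries. Of the members called in T-bet-null, STAT6-null and then double-null cells, 35 of 49, 40 of 58 and 52 of 62 were called in the same direction under every alternative setting and with any 1 library left out. Without WT replicate 2 fewer members were called higher in each mutant, and their share stayed above that of all genes in the same fit.

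Large and small subunit genes gave similar counts. In T-bet-null cells 27 of 47 large and 17 of 29 small subunit genes were called higher, with median differences of 0.26 and 0.29 on the log2 scale, against a median of -0.02 over all genes. In STAT6-null cells the counts were 32 and 19 and the medians 0.31 and 0.49. In double-null cells they were 38 and 22, with medians of 0.47 and 0.53. The spread among members was wide beside these medians: the differences of double-null cells from WT ran from -0.45 to 1.57, with an SD of 0.43 over the 76 genes. All 6 mutant libraries lay above both WT libraries for 49 of the 76 genes, or 64.5%, against 33.2% of all genes tested, and below both for 3 genes, against 33.7%.

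Since many members moved together, stretches of DNA before their start sites were examined for short motifs. Windows from 250 bases before to 50 after the start, from RefSeq on GRCm38.p6, were used for the 67 of the 76 genes that had one. The NRF1 motif, GCGCAN followed at once by GCGC, was found on either strand in 12 of them (17.9%), against 5.19% of all 27025 genes with a window and 12.5% of the 7393 of these that were tested here. The ETS motif CCGGAAG, which the factor GABP binds, was in 24 (35.8%, against 9.93% and 22.4%), and the YY1 motif, AANATG followed at once by GCGGC, in 7 (10.4%, against 1.17% and 3.26%). The E-box CACGTG, a site of MYC, was in 5 (7.46%, against 8.09% and 12.4%). None of the 4 motifs contains another, and a match is a description only. The median difference of double-null cells from WT was 0.48 for the 24 members with an ETS match and 0.53 for the 43 without. It was 0.45 with and 0.53 without an NRF1 match, 0.50 and 0.51 for YY1, and 0.77 and 0.49 for the E-box. All 5 members with an E-box were called higher in double-null cells, beside 50 of the 62 without one. The same held for all 7 members with a YY1 match, beside 48 of the 60 without. The 150 bases before the start are printed for the members with the largest rise on the log2(FPKM + 1) scale in either subunit. They are also printed for Mrpl3 and for Mrps25, which fell. Motif matches are in capitals, and the bases read 5′ to 3′ on the strand of the gene. The NRF1 match of Mrpl12 reads on the opposite strand, and the start used for Mrps2 lies inside the span that RefSeq gives the gene.
Mrpl12 (chr11:120484487-120484636, + strand, NRF1 match in capitals): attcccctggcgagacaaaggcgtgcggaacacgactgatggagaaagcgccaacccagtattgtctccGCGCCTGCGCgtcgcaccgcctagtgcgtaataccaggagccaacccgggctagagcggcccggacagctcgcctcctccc
Mrpl3 (chr9:105053118-105053267, + strand, ETS match in capitals): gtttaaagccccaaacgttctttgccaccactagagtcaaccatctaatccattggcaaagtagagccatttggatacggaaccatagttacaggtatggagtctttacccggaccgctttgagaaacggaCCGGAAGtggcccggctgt
Mrps2 (chr2:28467916-28468065, + strand, no match): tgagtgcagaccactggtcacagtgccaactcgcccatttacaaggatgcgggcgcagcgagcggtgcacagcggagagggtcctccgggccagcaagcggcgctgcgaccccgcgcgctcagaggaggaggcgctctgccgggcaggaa
Mrps25 (chr6:92184024-92184173, - strand, no match): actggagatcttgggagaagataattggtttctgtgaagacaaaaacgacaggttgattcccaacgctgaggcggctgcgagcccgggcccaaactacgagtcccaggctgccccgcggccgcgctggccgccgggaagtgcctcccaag

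Among the large subunit genes, Mrpl12 was the member with the largest rise in all 3 mutants on the log2(FPKM + 1) scale. As a ratio of means, Mrpl47 rose more in T-bet-null cells (2.25 times WT). Mrpl22 was slightly above Mrpl12 in STAT6-null cells (2.01 times WT). The product of Mrpl12 forms the flexible stalk at which translation factors dock. Mrpl12 (GRCm38 chromosome 11, 120484637 to 120488754) stood at 34.1 and 31.3 FPKM in WT, 68.2 and 69.5 in T-bet-null, 66.1 and 65.0 in STAT6-null and 81.5 and 89.8 in double-null libraries. The WT libraries were lowest and the double-null libraries highest, with no overlap between WT and any mutant. The mean was 2.10, 2.00 and 2.62 times that of WT, with T-bet-null given first, STAT6-null next and double-null last (log2 1.05 ± 0.0639, 0.98 ± 0.0639 and 1.36 ± 0.0639, SE, adjusted p = 2.62e-07 for the last). Mrpl10, which anchors the stalk, changed much less (0.22, 0.26 and 0.48 in the same order, all called). Mrpl11, at the base of the stalk, gave 0.14, 0.02 and 0.24, and of these the last was called (adjusted p = 0.0164), but not without WT replicate 2 or double-null replicate 2. The call of Mrpl10 in the single mutants ended without WT replicate 2, without either T-bet-null library or STAT6-null replicate 1, and with quantile normalization. The estimates for the 3 genes of this structure thus ranged widely, though they were not tested against each other.

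Genes of the peptidyl transferase region and the exit tunnel, through which the new protein leaves the ribosome, went both ways. Mrpl3, whose bacterial counterpart reaches the catalytic centre, stood at 11.3 and 12.5 FPKM in WT, 22.4 and 22.4 in T-bet-null, 22.7 and 24.9 in STAT6-null and 29.6 and 27.8 in double-null libraries (GRCm38 chromosome 9, 105053268 to 105077466). Its mean rose 1.88-, 2.00- and 2.41-fold, and again every mutant library was above both of WT. Mrpl22, a protein of the tunnel wall, rose from 7.999 ± 1.16 FPKM (mean ± SD, n = 2) in WT to 16.5 ± 1.22, 16.1 ± 2.11 and 19.7 ± 2.15 in the 3 mutants (log2 0.96, 0.93 and 1.20). Mrpl47, the relative of bacterial L29 at the tunnel exit, rose from 5.44 ± 0.477 to 12.3 ± 0.601, 10.2 ± 0.0102 and 12.03 ± 0.676 FPKM, and double-null minus T-bet-null gave -0.03, not called. Mrpl4, another tunnel protein, fell, although its call in STAT6-null cells ended once GC and length trends were removed. Mrpl4 stood at 25.6 and 23.5 FPKM in WT, 17.2 and 16.3 in T-bet-null, 18.5 and 18.8 in STAT6-null and 19.2 and 16.4 in double-null libraries, and all 6 mutant libraries lay below both of WT (log2 -0.53, -0.38 and -0.45, with adjusted p = 0.000349, adjusted p = 0.00233 and adjusted p = 0.000798 in the same order). Mrpl24 was called lower in STAT6-null cells (-0.20, adjusted p = 0.0443) and gave -0.09 and -0.15 in the other mutants, not called. Mrpl23 was called higher in double-null cells (0.22) and gave -0.13 and 0.03 in the single mutants, not called. Each of these calls, of Mrpl24 and of Mrpl23, was lost without WT replicate 1, without either library of the mutant and under several other settings.

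Mrpl45 and Mrpl44 sit near the exit, where the ribosome meets the inner membrane. Mrpl44, which resembles a ribonuclease, rose from 6.21 ± 0.54 FPKM in WT to 10.3 ± 1.31, 12.1 ± 0.19 and 12.9 ± 1.06 (log2 0.64, 0.87 and 0.95, all called). Mrpl45, which attaches the ribosome to the membrane, was called in T-bet-null (0.61) and double-null cells (0.73) and gave 0.30 in STAT6-null cells (adjusted p = 0.0618). The WT libraries of Mrpl45 differed from each other, at 4.20 and 2.92 FPKM, the widest spread of any member within WT on the log2 scale. Proteins of the central protuberance, the contact with the small subunit, split: Mrpl40 (0.44, 0.59 and 0.72), Mrpl38 (0.41, 0.54 and 0.53) and Mrpl46 (0.31, 0.37 and 0.58) were called higher in all 3 mutants, whereas Mrpl48 was called lower in T-bet-null and STAT6-null cells (-0.43 and -0.30) and not called in double-null cells (-0.19, adjusted p = 0.124). Without WT replicate 2 the calls of Mrpl46 in both single mutants and of Mrpl38 in T-bet-null cells were lost, and both T-bet-null calls were also lost without T-bet-null replicate 1. The call of Mrpl48 in STAT6-null cells was lost without WT replicate 1 or STAT6-null replicate 1. Mrpl48 stood at 14.0 and 11.8 FPKM in WT, 9.63 and 8.89 in T-bet-null, 9.56 and 11.02 in STAT6-null and 10.4 and 11.9 in double-null libraries, so a double-null library reached above a WT library.

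Other large subunit genes with large rises were Mrpl50 (0.97, 0.74 and 1.03), Mrpl36 (0.86, 0.76 and 1.03), Mrpl15 (0.84, 0.64 and 0.89), Mrpl43 (0.72, 0.79 and 0.94) and Mrpl20 (0.54, 0.72 and 0.81), all called in each mutant. Mrpl36 and Mrpl20 are relatives of bacterial proteins of the large subunit, and Mrpl50 and Mrpl43 have no bacterial counterpart. The exons of Mrpl43 share 385 bases with Twnk, the gene of the mitochondrial DNA helicase, on the opposite strand, and Twnk, listed under its older symbol Peo1, was also called higher (1.26, 0.90 and 1.13). The sources used here do not state whether the counting used strand, so reads of the shared stretch could come from either gene. Exons of Mrpl19 (1962 bases), Mrps18b (638), Mrps30 (601), Mrpl24 (594), Mrpl47 (452), Mrps27 (417), Mrpl48 (403) and Mrpl12 (200), among others, also overlap a gene on the opposite strand. The same holds for them.

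Mrps2 showed the largest rise of all 76 genes in each of the 3 mutants on the log2(FPKM + 1) scale. As a ratio of means, Mrps27 rose more in STAT6-null and double-null cells. Mrps2 encodes a small subunit protein with a bacterial counterpart, and lies at GRCm38 chromosome 2, 28465951 to 28471177. Mrps2 stood at 6.88 and 6.88 FPKM in WT, 21.7 and 19.9 in T-bet-null, 18.3 and 18.4 in STAT6-null and 21.1 and 23.9 in double-null libraries. The WT libraries were equal to the third digit and every mutant library was more than 18 FPKM. The means of the mutants were 3.03, 2.67 and 3.27 times that of WT (log2 1.47 ± 0.0712, 1.30 ± 0.0712 and 1.57 ± 0.0712, SE, with adjusted p = 5.31e-07, adjusted p = 8.17e-07 and adjusted p = 2.23e-07).

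The 3 genes related to bacterial S18 differed in size of change. Mrps18b stood at 24.2 and 20.6 FPKM in WT, 48.3 and 47.9 in T-bet-null, 45.1 and 42.9 in STAT6-null and 55.6 and 59.4 in double-null libraries, a rise of 2.14-, 1.96- and 2.56-fold. Mrps18a, whose product is found in the large subunit in structures of the mammalian ribosome, rose by 0.41, 0.50 and 0.62 on the log2 scale, and Mrps18c by 0.23, 0.33 and 0.28, all of them called. The log2 difference of Mrps18b from WT was thus larger than that of either relative in each mutant, though the relatives were not tested against it. Mrps18c had 22.8 ± 1.23 FPKM in WT and 28.05 ± 3.73 in double-null cells, and its calls were lost without WT replicate 2.

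Mrps27, an RNA-binding pentatricopeptide repeat protein, was the lowest small subunit gene in WT cells and rose most after Mrps2 in double-null cells. It stood at 2.13 and 2.08 FPKM in WT, 5.17 and 5.26 in T-bet-null, 5.48 and 5.82 in STAT6-null and 6.97 and 7.40 in double-null libraries (log2 1.00, 1.10 and 1.40), with all 4 genotypes in separate ranges. Ptcd3, a second pentatricopeptide repeat protein of the small subunit that carries no Mrps symbol, stood at 8.98 and 8.72 FPKM in WT, 22.1 and 22.4 in T-bet-null, 20.3 and 20.6 in STAT6-null and 20.3 and 20.0 in double-null libraries. It too was lowest in both WT libraries, and its differences were 1.24, 1.12 and 1.10. Mrps31, a mitochondria-specific protein, rose from 3.04 ± 0.119 FPKM to 6.78 ± 1.52, 7.77 ± 0.521 and 7.84 ± 0.677. Mrps10, a protein of the head of the subunit, stood at 10.8 and 9.99 FPKM in WT, 19.5 and 20.2 in T-bet-null, 19.6 and 21.2 in STAT6-null and 25.4 and 25.6 in double-null libraries, so that the double-null libraries exceeded all others.

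Mrps12, which lies at the decoding site, rose by 0.49, 0.66 and 0.84 and Mrps5, a protein of the body of the subunit, by 0.62, 0.56 and 0.99, all called. Mrps22 (0.74, 0.64 and 0.73), Mrps7 (0.62, 0.59 and 0.69) and Mrps6 (0.64, 0.61 and 0.53) were called higher in each mutant as well. Mrps6 was the most abundant of these at 40.8 ± 0.112 FPKM in WT and 64.3 ± 0.689, 62.9 ± 0.498 and 59.5 ± 1.83 in the mutants, and its double-null mean was the lowest of the 3 mutants. Mrps30, named for the small subunit but placed in the large one by structures, rose by 0.81, 0.58 and 0.97. Mrps36 rose by 0.27, 0.51 and 0.69, the first of these not being called without WT replicate 2 or T-bet-null replicate 2. Its product has since been assigned to the oxoglutarate dehydrogenase complex of the citrate cycle. Without Mrps36, and with Mrps30 and Mrps18a counted as large subunit genes, the medians in double-null cells were 0.48 for 49 large and 0.44 for 26 small subunit genes.

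**Figure D2:**
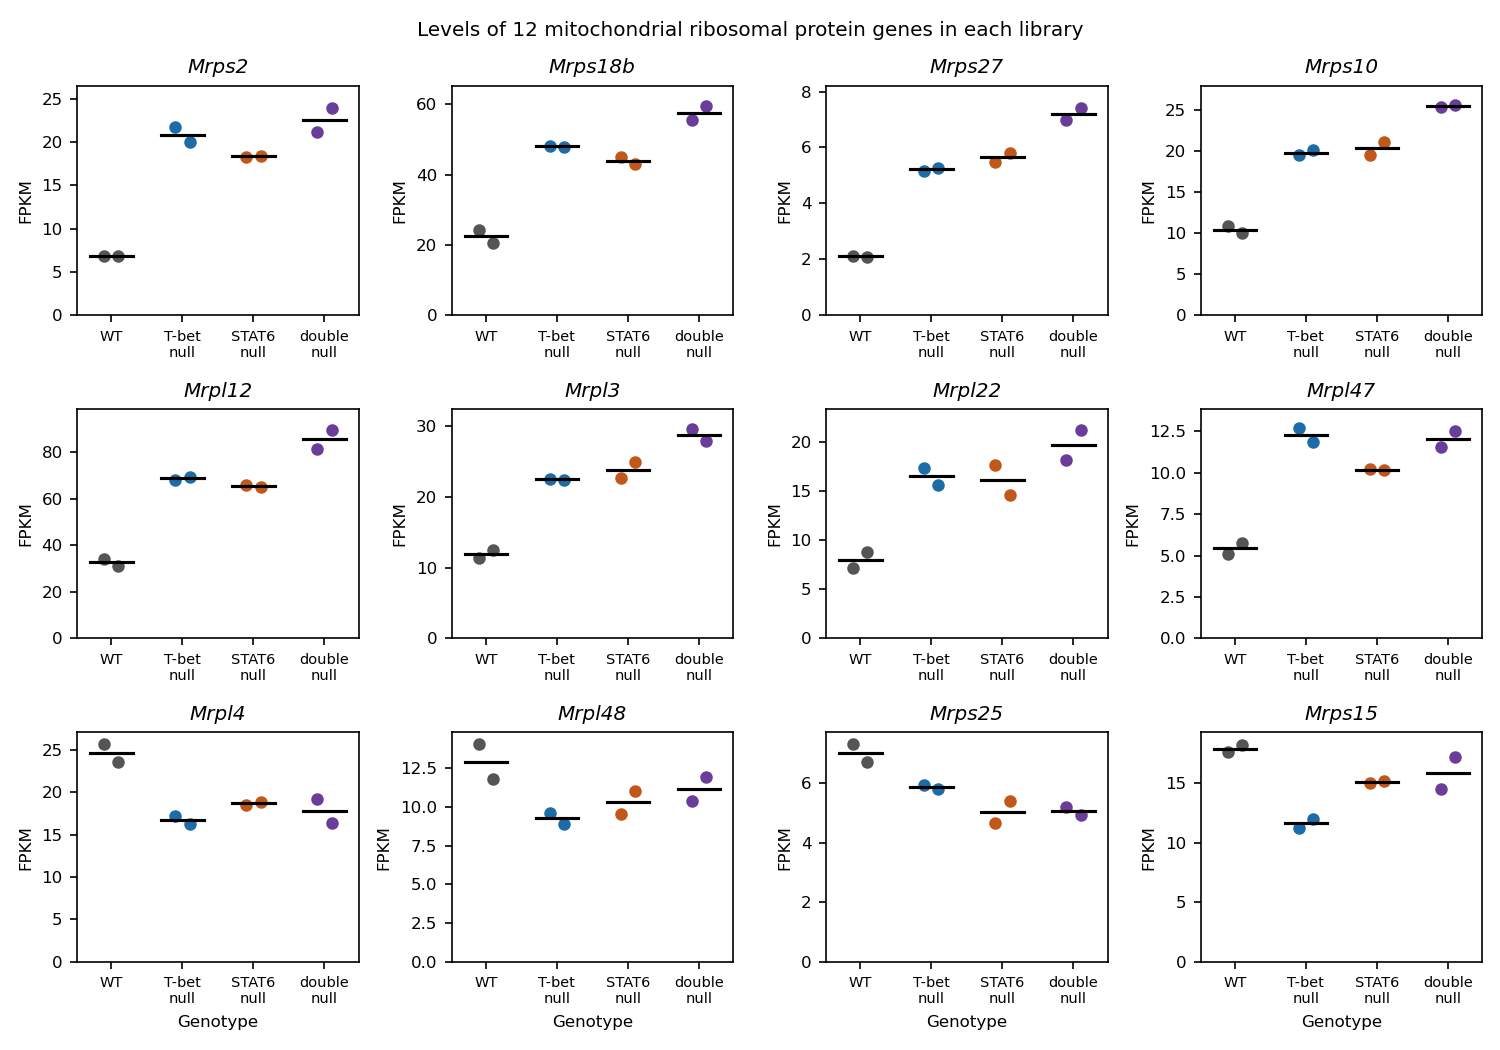
FPKM of 12 members in each library (points, coloured by genotype) with the mean of the 2 libraries (bars), each panel starting at 0. In the upper 2 rows the WT points lie below all others, and in the lowest row Mrpl4, Mrps25 and Mrps15 have both WT points above all others.

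Small subunit genes that fell were few. Mrps25 stood at 7.32 and 6.72 FPKM in WT, 5.95 and 5.82 in T-bet-null, 4.67 and 5.41 in STAT6-null and 5.19 and 4.92 in double-null libraries and was called lower in all 3 mutants (-0.22, -0.41 and -0.40, adjusted p = 0.0343 for the first, a call that was lost without WT replicate 1 or either T-bet-null library). Its exons share 3533 bases with Nr2c2 on the opposite strand, more than any other member shares with a neighbour. Mrps15, a protein that binds the small ribosomal RNA, stood at 17.6 and 18.2 FPKM in WT, 11.3 and 12.004 in T-bet-null, 14.99 and 15.2 in STAT6-null and 14.5 and 17.2 in double-null libraries. The T-bet-null libraries were the lowest, and the fall was called there (-0.58) and in STAT6-null cells (-0.23) but not in double-null cells (-0.17, adjusted p = 0.0766). The STAT6-null call was lost without either WT or either STAT6-null library and with GC and length trends removed. Mrps21, one of the more abundant members, stood at 73.8 and 66.5 FPKM in WT, 51.8 and 48.9 in T-bet-null, 64.1 and 66.9 in STAT6-null and 67.3 and 72.5 in double-null libraries. It was lower in T-bet-null cells (-0.47, adjusted p = 0.000248) and gave -0.10 and -0.01 in the other mutants, not called. In the large subunit Mrpl28 (-0.46) and Mrpl42 (-0.40) were called lower in STAT6-null cells. The WT libraries of Mrpl28 stood at 15.7 and 11.9 FPKM, beside 8.49 and 10.99 in STAT6-null cells, so the WT libraries lie further from each other than the lower of them lies from the nearer STAT6-null library, and the call was lost without WT replicate 1 or STAT6-null replicate 1.

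By mean level over the 8 libraries, the highest members were Mrpl52 (121 FPKM), Mrpl33 (95.4), Mrpl54 (66.8), Mrps21 (64.0) and Mrpl12 (63.2), and the lowest were Mrpl19 (2.73), Mrpl1 (3.47), Mrpl11 (3.86), Mrpl17 (4.29) and Mrpl35 (4.50). These are levels per transcript length. Mrpl52 stood at 129 and 120.0 FPKM in WT, 114 and 104 in T-bet-null, 129 and 116 in STAT6-null and 119 and 139 in double-null libraries, with the T-bet-null libraries lowest and the other 3 genotypes overlapping. It was called in no comparison with WT. Mrpl33, next in level, was called higher in STAT6-null (0.37) and double-null cells (0.46). Among the low members Mrpl17 rose by 0.70, 0.55 and 0.67, Mrpl35 by 0.48, 0.49 and 0.50 and Mrpl1 by 0.47, 0.47 and 0.47. Mrpl19 was called in T-bet-null (0.29, a call lost without WT replicate 1 or T-bet-null replicate 1) and in double-null cells (0.29). Of the 76 genes, 7 were called in no comparison with WT: Mrpl14, Mrpl34, Mrpl52, Mrps16, Mrps24, Mrps28 and Mrps34. Mrps16, for one, stood at 27.7 and 28.1 FPKM in WT, 28.6 and 26.5 in T-bet-null, 26.7 and 31.7 in STAT6-null and 25.4 and 28.6 in double-null libraries, with all 4 groups overlapping. The differences of the 7 genes from WT ran from -0.29 for Mrpl34 in STAT6-null cells to 0.22 for Mrps28 in double-null cells.

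Members were also compared by bacterial descent, by level and by transcript length, with no test between the classes. The 48 genes with a bacterial counterpart and the 28 specific to mitochondria had median differences of 0.46 and 0.51 between double-null and WT cells, with 37 and 23 called higher. In T-bet-null cells the medians were 0.26 and 0.28 and in STAT6-null cells 0.39 and 0.32. Members at or above the median level and those below it each had 30 of 38 called higher in double-null cells, with medians of 0.47 and 0.51. In T-bet-null cells these medians were 0.27 and 0.28, and in STAT6-null cells 0.33 and 0.48. The longest annotated transcripts of the members have a median of 1302 bases, against 2992 over all genes, and in T-bet-null cells the 38 longer members had a median of 0.44 with 27 called higher, and the 38 shorter ones 0.16 with 17. In STAT6-null cells the longer and shorter members had medians of 0.49 and 0.31, and in double-null cells 0.51 and 0.40. In T-bet-null cells genes outside the set went the same way by length: the 657 with transcripts under 1000 bases had a median of -0.20 and the 3237 of 4000 bases or more 0.05. These 2 classes had medians of -0.16 and -0.01 in STAT6-null and -0.07 and -0.05 in double-null cells. There the class from 2000 to under 4000 bases was highest (0.02 and 0.03). Within every length class the members lay above the other genes. In T-bet-null cells the medians were 0.11 against -0.20 under 1000 bases, 0.31 against -0.09 from 1000 to under 2000, 0.48 against 0.01 from 2000 to under 4000 and 0.37 against 0.05 at 4000 or more. With GC and length trends removed, 53 members were called higher in T-bet-null cells in place of 44. The share of all genes called higher was then 35.6% in place of 34.2%. Exons of 25 members overlap another gene, and 21 of these 25 were called higher in double-null cells, beside 39 of the 51 without overlap. The members lie on 17 chromosomes.

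Cytosolic ribosomal protein genes, which encode the other ribosome of the cell, moved the other way. Of 76 such genes limma called 0 higher and 49 lower in T-bet-null cells, 0 and 70 in STAT6-null and 0 and 33 in double-null cells, with medians of -0.21, -0.30 and -0.17. At an unadjusted p under 0.05 the higher counts were also 0, and the lower counts 52, 72 and 36. In the same comparisons the mitochondrial members had medians of 0.28, 0.35 and 0.48. By library, the median log2(FPKM + 1) of the cytosolic genes was 10.22 and 10.06 in WT and 9.99 and 9.94 in T-bet-null libraries. It was 9.88 and 9.91 in STAT6-null and 9.99 and 10.05 in double-null libraries, so double-null replicate 2 lay close to WT replicate 2. Nuclear genes of respiratory chain and ATP synthase subunits, 77 in number, gave 5 higher and 40 lower in T-bet-null, 5 and 31 in STAT6-null and 17 and 17 in double-null cells, with medians of -0.24, -0.17 and -0.00. With GC and length trends removed, the median of the cytosolic ribosomal protein genes was -0.11, -0.26 and -0.14, and with quantile normalization -0.05, -0.19 and -0.15, so the sign of the median held in both. The counts of lower genes in T-bet-null cells then were 33 and 10 in place of 49, with 2 genes called higher in each. Of all genes 36.6% and 35.1% were called lower in these settings. No test compared the groups of genes with each other.

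**Figure D3:**
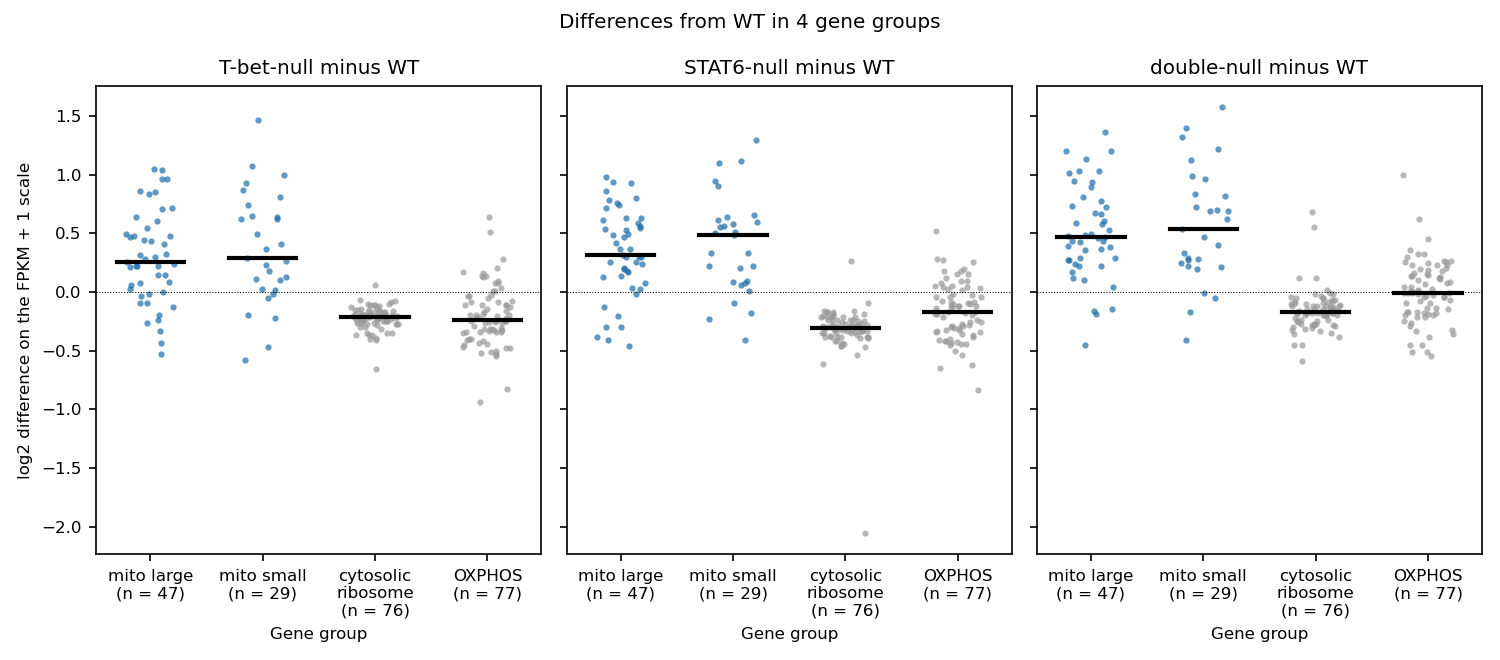
Each point is 1 gene, plotted by its difference from WT on the log2(FPKM + 1) scale in T-bet-null (left), STAT6-null (middle) and double-null cells (right), for mitochondrial ribosomal protein genes of either subunit (blue), cytosolic ribosomal protein genes and respiratory chain and ATP synthase genes (grey), with the median as a bar. The medians of the mitochondrial groups lie between 0.26 and 0.53 and those of the cytosolic ribosome between -0.30 and -0.17.

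Other genes of mitochondrial protein synthesis were given by list, and each count reads against the 34.2% to 36.3% of all genes called higher and the 36.1% to 36.7% called lower in the same comparisons. Of 7 further ribosomal proteins with other symbols, 4 were called higher and 2 lower in T-bet-null, 4 and 1 in STAT6-null and 5 and 1 in double-null cells. Ptcd3 is described above. Gadd45gip1, a large subunit protein, gave 0.78, 0.86 and 0.91, and Mrp63 0.49, 0.48 and 0.64, while Dap3, which binds GTP in the small subunit, was lower (-0.20, -0.30 and -0.30). Of 12 translation factor genes in the fit, 7 rose and 0 fell in T-bet-null, 6 and 1 in STAT6-null and 6 and 1 in double-null cells. Gfm1, the elongation factor that moves the ribosome along the message, rose by 1.00, 1.09 and 1.31, and Mtfmt, which formylates the initiator, by 0.84, 0.81 and 0.96. Ribosome assembly and RNA modification genes gave 14 higher and 2 lower, 14 and 1, and 13 and 2 of 20, with the GTPase gene Noa1 at 1.07, 1.08 and 1.18 and the helicase gene Ddx28 at 0.43, 1.06 and 1.35.

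Most import genes rose as well. Of 24 genes for import into mitochondria 19 were called higher and 1 lower in T-bet-null, 20 and 0 in STAT6-null and 21 and 0 in double-null cells, with medians of 0.55, 0.54 and 0.71. Tomm40, the channel of the outer membrane, gave 1.22, 1.30 and 1.61, and Timm50, a receptor of the inner membrane, 1.21, 1.09 and 1.51. Genes for mitochondrial DNA transcription, RNA stability and copying gave 7 higher and 1 lower, 7 and 2, and 7 and 2 of 9, among them Tfb2m, which helps the mitochondrial RNA polymerase to start (0.95, 1.03 and 1.19), and Polg2, a subunit of the DNA polymerase, which was lower (-0.69, -0.96 and -1.03). Ligases that charge mitochondrial tRNAs were split, with 8 higher and 6 lower, 8 and 6, and 8 and 5 of 19, shares (42.1% higher in each, 31.6%, 31.6% and 26.3% lower) near those of all genes. Yars2 rose by 1.09, 0.95 and 1.08, and Fars2 was lower (-0.91, -1.02 and -1.07). Of 10 genes for regulators of mitochondrial growth, 4 were called higher and 3 lower, 5 and 1, and 6 and 1, the first of these also near the shares of all genes. Pprc1, a growth-responsive coactivator, rose by 0.95, 0.78 and 1.03, and Gabpa, a subunit of an activator of many mitochondrial genes, by 0.58, 0.55 and 0.64. Gabpb1, from the same list, was called lower in T-bet-null (-0.67) and double-null cells (-0.36). Myc stood at 510.3 and 488 FPKM in WT, 429 and 406 in T-bet-null, 495 and 445 in STAT6-null and 591 and 607 in double-null libraries, so the double-null libraries were the highest and the T-bet-null libraries the lowest.

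Double-null cells were then compared with each single mutant. Over T-bet-null cells, 31 of the 76 genes were called higher and 0 lower, against 16.4% and 16.2% of all genes, which makes 40.8% of the members. Over STAT6-null cells 15 were called higher and 0 lower, or 19.7%, against 11.3% and 8.63% of all genes. At an unadjusted p under 0.05 in limma, 1 member was lower and 38 higher than in T-bet-null cells, and 0 lower and 27 higher than in STAT6-null cells. By subunit, 18 of 47 large and 13 of 29 small subunit genes were called higher over T-bet-null, and 8 of 47 and 7 of 29 over STAT6-null cells. Either way, 32.6% and 19.9% of all genes were called. The medians were 0.22 and 0.21 over T-bet-null and 0.18 and 0.18 over STAT6-null cells for the 2 subunits. Respiratory chain and ATP synthase genes went the same way. Of these 77 genes 26 (33.8%) were called higher over T-bet-null and 14 (18.2%) over STAT6-null cells, with 0 lower and medians of 0.18 and 0.15. Of the 24 import genes 11 and 7 were called higher and 0 lower. Of the 76 cytosolic ribosomal protein genes 3 and 5 were called higher and 0 lower. Both double-null libraries lay above the other 6 libraries for 34 of the 76 genes, or 44.7%, against 13.4% of all genes.

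These counts rest on single libraries more than those against WT do. Among the members 63 of 76 were higher in double-null replicate 2 than in replicate 1, by a median of 0.10, and 58 of 76 were higher in WT replicate 1 than in replicate 2, by a median of 0.11. Without double-null replicate 2 the count over T-bet-null cells was 13 in place of 31 and the count over STAT6-null cells 2 in place of 15. Without T-bet-null replicate 1 or 2 the first count was 15 or 13, and without STAT6-null replicate 1 or 2 the second was 2 or 8. With 1 library left in a group, its spread is taken from the other groups, and fewer of all genes were called as well. Over T-bet-null cells the share of members called higher stayed above that of all genes in these fits. Over STAT6-null cells it lay below that of all genes without double-null replicate 2 or STAT6-null replicate 1. Of the 31 and 15 genes, 9 and 1 were called under every alternative, the last being Mrpl12. The 15 cell cycle genes summed to 426 to 458 FPKM in double-null, 406 to 417 in T-bet-null and 345 to 351 in STAT6-null libraries, and their part in these differences was not tested.

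Mrpl55, a large subunit protein, had the largest called difference over T-bet-null cells. It stood at 4.20 and 4.18 FPKM in WT, 4.03 and 4.37 in T-bet-null, 5.10 and 8.17 in STAT6-null and 8.77 and 12.3 in double-null libraries. The T-bet-null and WT libraries lay together, but the STAT6-null libraries differed from each other by the widest spread of any member within its genotype on the log2 scale, and the double-null libraries were also apart (1.13 ± 0.187, SE, adjusted p = 0.00262). Mrps21 (0.46), Mrpl54 (0.45), Mrps36 (0.42), Mrps28 (0.42), Mrps15 (0.41), Mrps23 (0.40), Mrpl37 (0.40), Mrps27 (0.40) and Mrpl33 (0.38) followed among the called genes, and Mrpl14 (0.39, adjusted p = 0.0647) was not called. Mrpl37, a mitochondria-specific protein, stood at 12.1 and 11.6 FPKM in WT, 11.5 and 11.9 in T-bet-null, 14.5 and 13.8 in STAT6-null and 15.4 and 16.2 in double-null libraries, with WT and T-bet-null together and the other genotypes above them. Of these, Mrps15 and Mrps21 were called lower in T-bet-null than in WT cells, and Mrps27 (1.00), Mrps23 (0.29) and Mrps36 (0.27) were called higher there. The calls of Mrpl54, Mrps36 and Mrps28 were among those lost with a T-bet-null library left out.

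Over STAT6-null cells the called genes with the largest differences were Mrpl42 (0.50), Mrpl45 (0.43), Mrps5 (0.43), Mrps28 (0.40), Mrps30 (0.39), Mrpl12 (0.38) and Mrps18b (0.38). Mrps5 stood at 8.76 and 7.54 FPKM in WT, 12.6 and 13.5 in T-bet-null, 11.6 and 13.3 in STAT6-null and 16.1 and 18.1 in double-null libraries, and both double-null libraries were above the other 6. Mrpl42 stood at 20.5 and 16.8 FPKM in WT, 15.4 and 15.7 in T-bet-null, 13.2 and 14.4 in STAT6-null and 18.6 and 21.5 in double-null libraries. Its STAT6-null libraries were the lowest and its double-null libraries overlapped those of WT. In all, 8 genes were called higher in double-null cells against WT and against each single mutant: Mrpl3, Mrpl12, Mrpl18, Mrpl32, Mrps5, Mrps10, Mrps18b and Mrps27. The share of all genes called higher in each of these comparisons was not counted, so the number has no background beside it. Of the 15 calls over STAT6-null cells only 1, that of Mrpl12, held under every alternative.

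**Figure D4:**
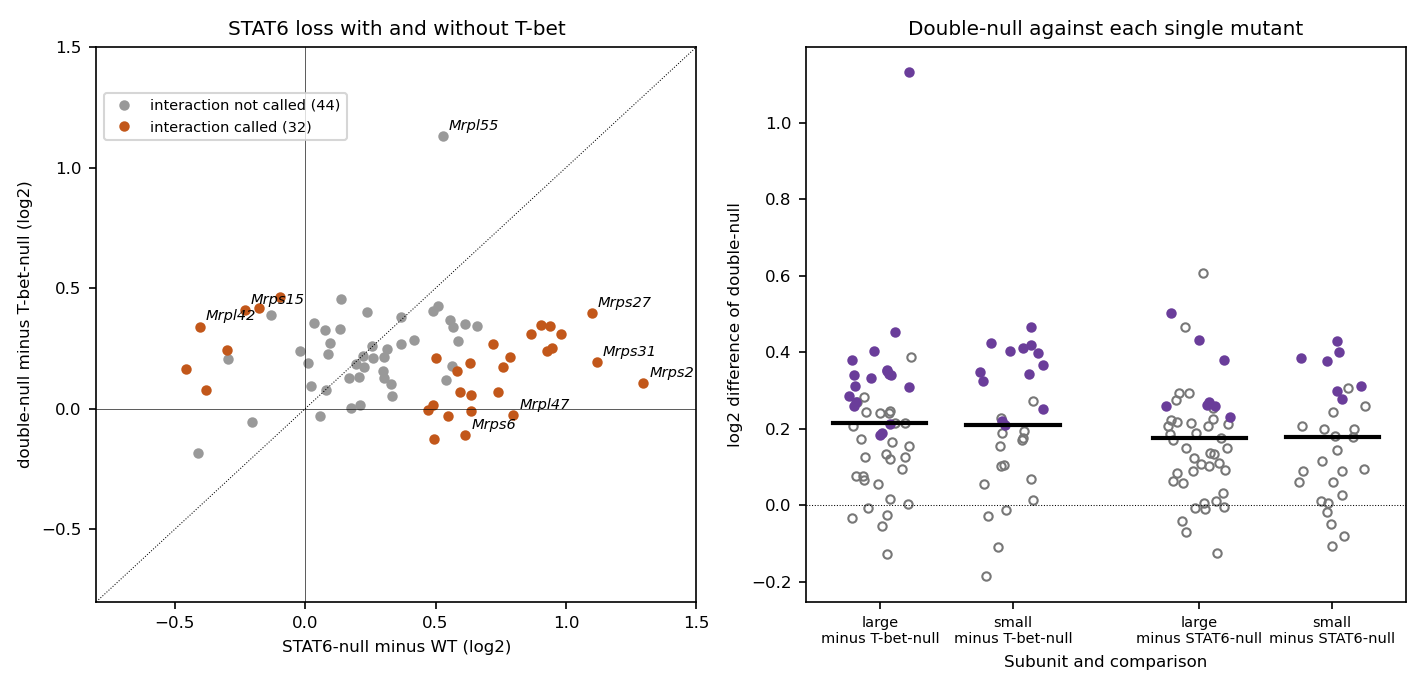
Left, each of the 76 genes by the effect of STAT6 loss in cells with T-bet (horizontal) and without it (vertical), both as log2 differences, with the 32 genes whose interaction was called in orange and a dotted line where the effects would be equal. Right, double-null minus T-bet-null and minus STAT6-null differences by subunit, called genes filled and medians as bars; the called points, 31 and 15, all lie above 0.

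The effects of the 2 losses departed from a sum on the log2 scale for 32 of the 76 genes. The interaction, which is the effect of STAT6 loss without T-bet minus that with T-bet, was called negative for 25 and positive for 7, or 32.9% and 9.21%, against 27.7% and 29.6% of all genes, or 57.3% either way. Mrps2 had the largest: the loss of STAT6 raised it by 1.30 in cells with T-bet, and the difference in cells without T-bet was 0.11 (-1.19 ± 0.101, SE, adjusted p = 3.58e-05). For Mrps6 the values were 0.61 and -0.11, and for Mrpl47 0.80 and -0.03. Among the genes with a positive interaction, Mrpl42 gave -0.40 with T-bet and 0.34 without it. The WT libraries enter this contrast, so what was said of their preparation holds for it too.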

How the data were processed

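RNA of 8 libraries was sequenced, and 1 table gave FPKM per gene symbol. The authors made the FPKM values with Cufflinks on mm10, per the submitters' processing notes, and no version, aligner or strand setting is given in the sources used here. The deposited table held 11906 rows. For 43 symbols on several rows the row with the highest mean was kept and the 65 others were set aside, and 17 names turned into dates were left as they stood, which left 11841 symbols. FPKM are no counts, so depth is known only as a ratio between libraries and no counting interval was made.

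Differences were fitted on log2(FPKM + 1) with limma 3.58.1 in R 4.3.3 (a mean per genotype over all 8 libraries, 4 residual degrees of freedom, empirical Bayes with an intensity trend, two-sided), for 10281 genes with at least 1 FPKM in at least 2 libraries, and p-values were adjusted by Benjamini-Hochberg within each of 6 comparisons. The fit was tested on simulated data. Tables and plots were made with Python 3.11.15, pandas 2.3.3, SciPy 1.17.1 and matplotlib 3.10.9. Transcript length, GC and exon overlap came from the GENCODE annotation of GRCm38.

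The members and all other gene lists were chosen with earlier results of these data known. Genes named were up to 6 called members a subunit with the largest rise and fall in each comparison, the 5 highest and 5 lowest by mean FPKM, members called in no comparison with WT or against the majority, and 9 genes for their place in the ribosome. From each other list up to 3 called genes a comparison were named by size of change, with Dap3 added. Other members named here, such as Mrps7, Mrpl15, Mrpl20, Mrpl38, Mrpl40, Mrpl46 and Mrps16, illustrate a role and were chosen after their values were seen. RefSeq has 78 protein-coding genes that match the rule, and the 2 not found under it stand in the table under older symbols, Mrp63 and Ict1, and were counted among those with other symbols. Cox4nb, Atp5s, Atp5sl and cytosolic paralogs were kept out of the respiratory chain list. Alternatives were pseudocount, filters, scaling, quantile normalization, no intensity trend, compared groups only, a replicate block, removal of GC and length trends, and leaving out each library.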

Additional observations from a re-analysis of the deposited data

Results flagged for a closer look

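For 32 members the effect of STAT6 loss differed between cells without and with T-bet by the interaction term of the limma fit, with a positive term for 7 and a negative one for 25. The positive and negative terms make up 9.21% and 32.9% of the 76 members, against 29.6% and 27.7% of all genes, and in either direction 57.3% of all genes were called, a larger share than of the members. All of these comparisons share the WT libraries. Among large subunit genes the most negative log2 terms were those of Mrpl47 (-0.82), Mrpl22 (-0.69), Mrpl50 (-0.67), Mrpl12 (-0.67), Mrpl30 (-0.62) and Mrpl3 (-0.60), and the positive ones were those of Mrpl42 (0.74), Mrpl28 (0.62), Mrpl48 (0.54) and Mrpl4 (0.46). Among small subunit genes they were Mrps2 (-1.19), Mrps31 (-0.92), Mrps6 (-0.72), Mrps27 (-0.70), Mrps18b (-0.69) and Mrps22 (-0.65), and Mrps15 (0.64), Mrps28 (0.60) and Mrps21 (0.56). The genes with the most negative terms had risen in both single mutants. The calls of Mrpl28 and Mrpl4 were lost once GC and length trends were removed, and that of Mrpl28 also without WT replicate 1, T-bet-null replicate 2, STAT6-null replicate 1 or double-null replicate 2.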

How the results depend on the processing

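The counts of members called higher than in WT stayed within 1.5 times of the reported value under every alternative, and with 1 library left out they ran from 37 to 44 in T-bet-null, 40 to 51 in STAT6-null and 50 to 60 in double-null cells. Small counts moved more. Of members lower in T-bet-null cells there were 5, but 9 with quantile normalization or with the compared groups only, and 4 to 9 with a library left out (9 without WT replicate 2). Lower in STAT6-null cells were 7, or 3 to 8 with a library left out (3 without WT replicate 1 or STAT6-null replicate 1), and lower in double-null cells 2, but 5 with quantile normalization and 2 to 3 with a library left out. Against T-bet-null cells the higher double-null members were 31, or 13 to 34 with a library left out, and lower 0, but 1 with quantile normalization and 1 with GC and length trends removed. Against STAT6-null cells they were 15, or 2 to 19. The positive interactions numbered 7, or 6 to 13 (11 without T-bet-null replicate 1, 13 without double-null replicate 1), and the negative ones 25, or 24 to 29. With GC and length trends removed, 3 differences turned from below 0, not called, to called above 0: Mrpl37 (0.15) and Mrpl54 (0.17) in T-bet-null and Mrpl52 (0.17) in STAT6-null cells. The cause of these shifts was not tested. Over STAT6-null cells the share of members called higher fell below that of all genes without double-null replicate 2 or STAT6-null replicate 1. With the replicate block the counts of higher and lower members were 44 and 5, 50 and 6, and 58 and 2 against WT, 26 and 0 over T-bet-null, 14 and 0 over STAT6-null cells, and 8 and 27 for the interaction. Libraries of the same number did not deviate together (correlations of -0.09 to 0.09), so the numbers are not taken to pair them. The fit with the compared groups only was not run for the interaction, which needs all 4 groups. Depth in reads is unknown, and 2 libraries a genotype limit the precision.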
